A study of Mus musculus with 16 samples.

Results

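The matrix proteases examined here, with their inhibitors and the enzymes that cross-link the matrix, were 82 of the 53465 genes in the deposited table. They were chosen by name and not by level: every protein-coding gene (22040 in all) called Mmp, Adam, Adamts or Adamtsl with a number, Timp1 to Timp4, and Lox and Loxl1 to Loxl4. Of these, 27 were ADAM genes, 22 matrix metalloproteinases (MMPs), 19 ADAMTS genes, 5 ADAMTS-like genes (ADAMTSL), 5 lysyl oxidases and 4 tissue inhibitors of metalloproteinases (TIMPs). Dorsal root ganglia (DRG, L3 to L5) and the dorsal side of the lumbar spinal cord (SC) came from female C57BL/6J mice operated on both sides at 8 weeks of age, with either spared nerve injury (SNI), in which branches of the sciatic nerve are cut and the sural branch is left, or a sham operation that exposed the nerve and left its branches intact. Tissue was taken 30 days later. Each lysate, made from the pooled tissue of 10 mice, was split into a ribosome footprint (RFP) library and a poly(A) mRNA library. There were 2 lysates for each tissue and operation, so n = 2 pools stands behind each group. P-values rest on the spread estimated between pools, and the spread between animals within a pool is not seen. Standard errors were close to what read counting alone gives. The median ratios over these genes were 1.0 in DRG mRNA, 1.05 in DRG footprints, 1.06 in SC mRNA and 0.98 in SC footprints. For most of them, p-values thus reflect read counts more than spread between pools.

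MMPs and ADAMTS proteases cut collagens, proteoglycans and other parts of the extracellular matrix, whereas most ADAMs with an active protease domain sit in the cell membrane and release ligands and receptors from it. TIMPs block the active site of these metalloproteinases, and lysyl oxidases cross-link collagen and elastin fibres. After peripheral nerve injury, matrix remodelling around Schwann cells, fibroblasts and macrophages is well known, and MMPs have been studied in pain in both the ganglion and the cord.

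Several MMP genes lie side by side. On mouse chromosome 9, 9 of them (Mmp13, Mmp12, Mmp1b, Mmp3, Mmp10, Mmp8, Mmp27, Mmp20 and Mmp7) occupy chr9:7272514-7699585 of GRCm38. RefSeq promoters of GRCm38.p6, from 250 bases before to 50 after the start, were found for 48 of the 82 genes, with 34 lacking an entry. The letters TGAGTCA, the classical AP-1 element, with their reverse complement TGACTCA, occurred in 5.2% of 32851 promoters and in 8 of the 53 promoters of these genes (15.1%). These belonged to Adam19, Adam29 and 6 genes of the chromosome 9 group, in which the letters began 35 to 93 bases before the start of that entry. Adam19, Mmp12 and Mmp7 also had entries at other starts, without the letters. The 6 windows from 110 to 11 bases before the start are shown because the shared letters, in capitals, mark neighbouring genes of which Mmp13 alone passed the read minimum in any assay. In the order given, they lie on GRCm38.p6 at chr9:7272404-7272503 (plus strand), chr9:7347264-7347363 (plus), chr9:7388037-7388136 (minus), chr9:7445712-7445811 (plus), chr9:7502232-7502331 (plus) and chr9:7691980-7692079 (plus).
Mmp13: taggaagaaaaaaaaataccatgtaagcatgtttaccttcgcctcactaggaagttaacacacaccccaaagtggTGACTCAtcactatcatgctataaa
Mmp12: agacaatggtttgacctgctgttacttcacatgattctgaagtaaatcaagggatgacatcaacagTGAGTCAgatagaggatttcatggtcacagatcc
Mmp1b: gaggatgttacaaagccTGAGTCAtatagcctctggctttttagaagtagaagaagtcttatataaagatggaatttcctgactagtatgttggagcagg
Mmp3: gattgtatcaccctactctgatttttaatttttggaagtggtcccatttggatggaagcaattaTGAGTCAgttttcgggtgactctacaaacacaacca
Mmp10: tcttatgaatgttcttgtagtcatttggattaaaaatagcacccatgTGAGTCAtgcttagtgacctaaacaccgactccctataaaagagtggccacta
Mmp7: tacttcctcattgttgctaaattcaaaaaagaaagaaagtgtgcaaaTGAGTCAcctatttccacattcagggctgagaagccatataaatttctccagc

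The reads of these genes in the 4 DRG mRNA libraries together were 149 for Mmp13, a collagenase also known from bone, 32 for Mmp12, the macrophage elastase, 13 for Mmp3, a stromelysin, and 0 for each of Mmp1b, Mmp10 and Mmp7. In the 4 SC mRNA libraries they were 69 for Mmp13, 4 for Mmp12, 7 for Mmp3, 1 for Mmp1b and 0 for Mmp10 and Mmp7. DRG footprints held 380 reads of Mmp13, 36 of Mmp12 and 12 of Mmp3. A match of letters in a window says nothing about whether a factor bound there.

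The promoter of Adam8, the gene with the largest footprint rise among the 47 tested in the DRG, is printed whole beside them, from chr7:139992513-139992812 on the minus strand of GRCm38.p6. These letters did not occur in this window. Loxl2 and Mmp16, the other genes with large changes, had no entry.
Adam8: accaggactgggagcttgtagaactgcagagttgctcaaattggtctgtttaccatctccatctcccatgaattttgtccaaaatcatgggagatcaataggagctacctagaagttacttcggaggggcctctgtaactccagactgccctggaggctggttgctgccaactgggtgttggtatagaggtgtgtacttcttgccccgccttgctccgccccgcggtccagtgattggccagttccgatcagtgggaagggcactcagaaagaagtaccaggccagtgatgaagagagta

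The depth in genes was 18176471 to 28553113 reads for the mRNA libraries, 7467803 to 21613483 reads for DRG footprints and 6898056 to 10688450 reads for SC footprints. The 82 genes took 0.372% to 0.387% of DRG mRNA reads and 0.289% to 0.298% of SC mRNA reads. The tissue labels held against their markers: the summed level of 8 sensory neuron genes was 5686 to 5899 CPM (TMM-scaled reads relative to library size) in DRG mRNA and 86.6 to 106 CPM in SC mRNA. The summed level of 8 genes known to be induced in injured sensory neurons was 543 and 551 CPM in sham and 1273 and 1278 CPM in SNI DRG mRNA. In such bulk tissue, fewer cells of a type and less RNA per cell cannot be told apart.

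Many ADAMs of the male germ line were hardly read. No read was found in any of the 16 libraries for Adam20, Adam29, Adam34, Mmp7, Mmp10, Mmp20 or Mmp21, and 17 genes had fewer than 20 reads in all. In mRNA, 24 genes (15 ADAMs, 8 MMPs and 1 ADAMTS) stayed under the minimum, a mean of 32 reads over the 4 libraries, in both tissues, and 46 passed it in both.

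The inhibitors and a few membrane ADAMs had the highest levels. Per kilobase of exon, Timp2, the most widely expressed TIMP, stood far above the rest, at 313 ± 3.06 CPM per kilobase (SD, n = 2) in sham DRG mRNA and 201 ± 1.51 in sham SC mRNA. In sham DRG mRNA the next on this scale of levels were Adam11 at 41.4 ± 0.217, Timp3 at 33.7 ± 0.0915, Adam23 at 29.8 ± 0.156, Mmp15 at 26.0 ± 0.252, Adam22 at 25.3 ± 0.183, Adam9 at 24.5 ± 0.0784, Adam10 at 22.2 ± 0.0756, Adam15 at 18.8 ± 0.307 and Adam19 at 13.3 ± 0.0546. Adam11, Adam22 and Adam23 are neuronal ADAMs without protease activity, of which Adam22 and Adam23 are receptors of the synaptic LGI proteins. In sham SC mRNA the order of levels after Timp2 was Adam23 at 27.4 ± 0.445, Adam22 at 26.4 ± 0.413, Adam10 at 23.0 ± 1.08, Timp3 at 22.5 ± 0.467, Adam15 at 19.5 ± 0.463, Adam9 at 19.2 ± 0.671, Timp4 at 18.1 ± 0.880, Adam11 at 17.9 ± 0.420 and Adamts4 at 13.4 ± 0.305. In SC, Adam10 and Timp3, Adam15 and Adam9, and Timp4 and Adam11 lay closer than their SDs.

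In the DRG, the mRNA of many of these genes was higher 30 days after SNI. Of the 54 genes tested, 23 rose and 3 fell (edgeR, adjusted p under 0.05), against 15.9% of all 14494 tested genes that rose and 17.0% that fell. The median log2 change was 0.14 for the 54 genes and 0.00 for all genes. In footprints, 14 of 47 rose and 2 fell, against backgrounds of 8.40% and 8.28% of 13038 genes, with medians of 0.12 and 0.00. Most of the increases were small: Loxl2, Adam8 and Mmp16 in mRNA, and Adam8 and Mmp16 in footprints, were the 3 and 2 genes that also passed a test against a 1.5-fold change. The common coefficient of variation between pools was 0.00988 in DRG mRNA, so the standard errors were close to counting error (median ratio 1.0 over the 54 genes), and with a coefficient of 0.1 the same 3 genes passed in mRNA and the same 2 in footprints. In DESeq2, 12 rose and 2 fell in mRNA, against 928 and 1176 of all genes (2308 and 2467 in edgeR). Of the edgeR calls, Adam33, Adamts12, Adamts20, Adamtsl4, Loxl1, Loxl3, Mmp14, Mmp15, Mmp19, Mmp24, Timp1 and Timp2 did not pass in DESeq2 (adjusted p from 0.0678 to 0.383). In footprints 4 rose and 2 fell in DESeq2, against 349 and 376 of all genes (1095 and 1080 in edgeR). Of the edgeR calls, Adam10, Adamts1, Adamts14, Adamtsl4, Lox, Mmp2, Mmp17, Mmp19, Mmp25 and Mmp28 did not pass in DESeq2 (adjusted p from 0.142 to 0.604). Without sham replicate 1, 14 genes rose in mRNA by edgeR, and in footprints 9 rose without sham replicate 2 and 8 without SNI replicate 2. Scaled by library size alone, 29 rose and 2 fell in mRNA, and upward calls among all genes went from 48.3% to 63.3% of calls. In footprints this share went from 50.3% to 62.0%, with 15 and 2 genes.

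**Figure D1:**
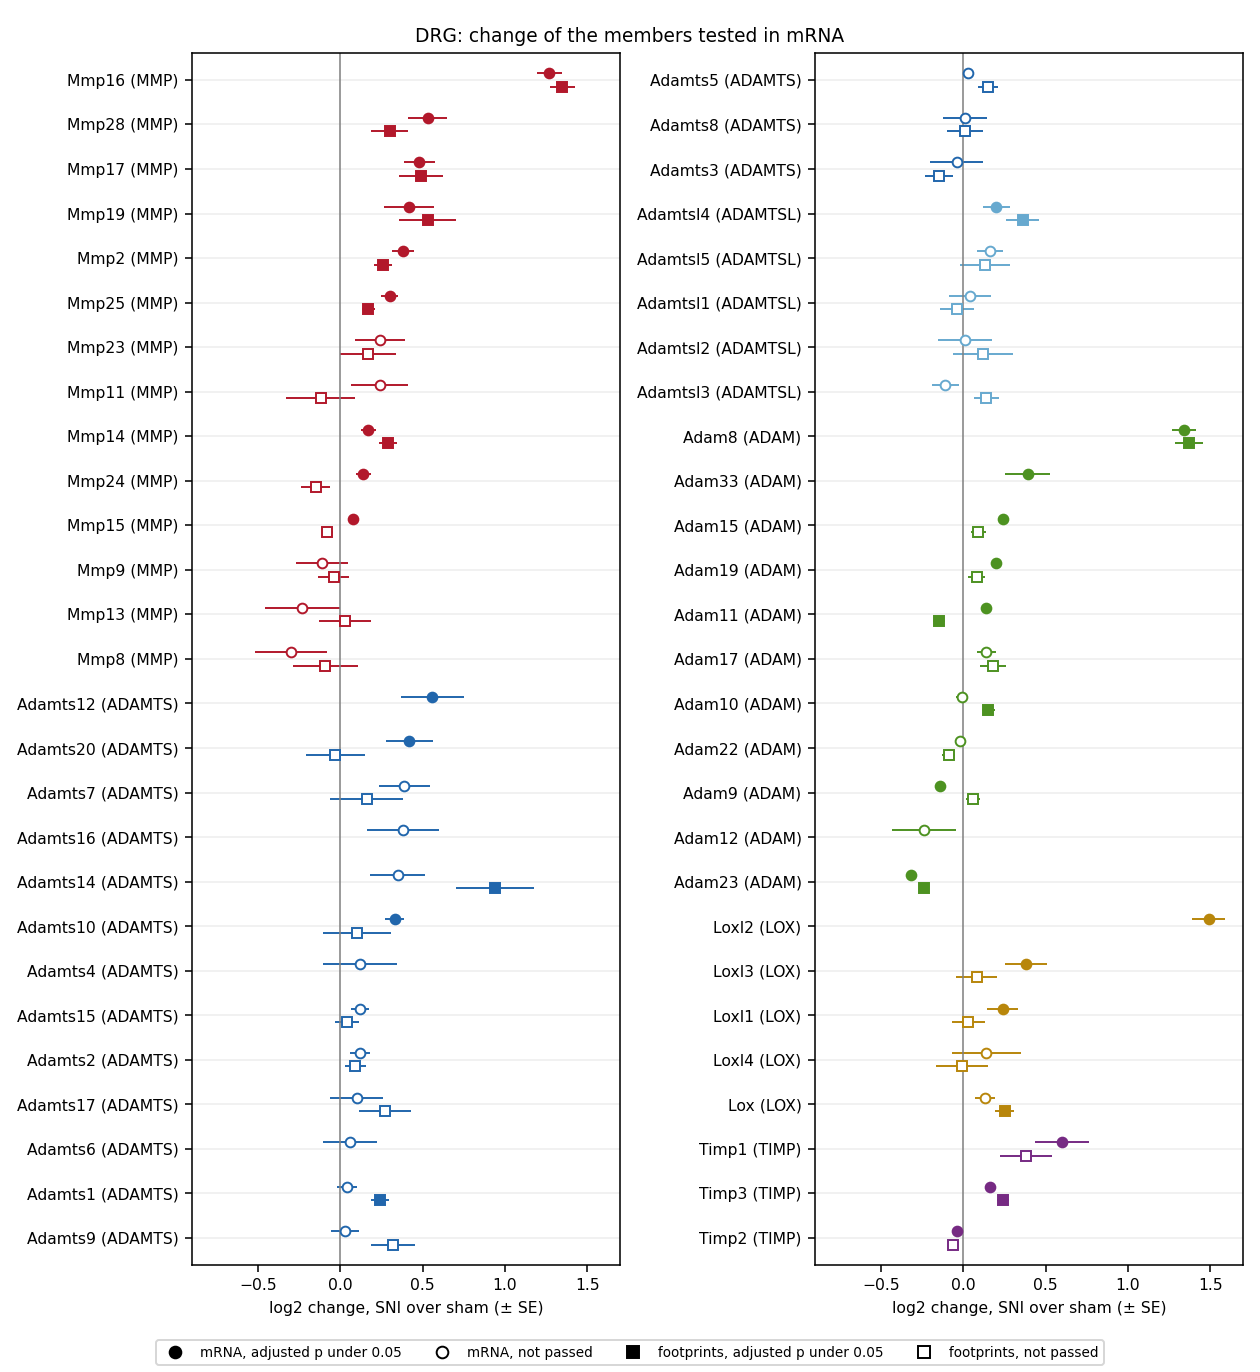
Log2 change of SNI over sham in the DRG, with standard errors, for the 54 genes tested in mRNA, with their footprint change where tested; filled symbols passed an adjusted p of 0.05. Loxl2, Adam8 and Mmp16 stand apart from the rest at 1.27 to 1.49 in mRNA.

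Loxl2, a lysyl oxidase that cross-links collagen IV (chr14:69609068-69695834, plus strand, GRCm38), was read in DRG mRNA at 5.77 and 6.23 CPM in sham and 17.0 and 16.6 CPM in SNI. The groups lay far apart, and the mRNA rose by 1.49 on the log2 scale (SE 0.10, adjusted p = 1.39e-14), or 2.81-fold. By size it ranked 35 of 14494 changes. Its footprints were few, 123 reads in the 4 libraries, which is under the minimum, and stood at 1.35 and 1.03 CPM in sham and 2.81 and 2.75 CPM in SNI. In a fit with no minimum their change was 1.30 (SE 0.278, edgeR adjusted p = 0.000223).

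Adam8, a sheddase known from myeloid cells (chr7:139978932-139992562, minus strand), was read in DRG mRNA at 11.1 and 10.7 CPM in sham and 27.9 and 27.3 CPM in SNI. In footprints it was at 13.0 and 14.0 CPM in sham and 34.8 and 35.9 CPM in SNI. Both assays separated the groups widely. The log2 change was 1.34 (SE 0.0725, adjusted p = 3.05e-17) in mRNA and 1.37 (SE 0.0858, adjusted p = 1.63e-28) in footprints, and that of translational efficiency (TE, the footprint level over the mRNA level of the same lysate) was 0.03 (SE 0.126, edgeR adjusted p = 0.932). Of 10 macrophage and microglia genes, 7 rose in DRG mRNA and 0 fell, against 15.9% and 17.0% of all genes. Their summed level was 160 and 155 CPM in sham and 214 and 213 CPM in SNI. Their part in the Adam8 change was not tested.

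Mmp16, the membrane-type enzyme MT3-MMP (chr4:17852893-18119145, plus strand), was at 10.3 and 9.74 CPM in sham and 24.2 CPM in both SNI libraries in DRG mRNA. Its footprints were at 14.7 and 17.1 CPM in sham and 41.8 and 41.6 CPM in SNI. The groups were far apart in both assays. The change was 1.27 (SE 0.0774, adjusted p = 1.03e-15) in mRNA and 1.35 (SE 0.0783, adjusted p = 4.55e-31) in footprints, and 0.09 (SE 0.123, edgeR adjusted p = 0.762) in TE.

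**Figure D2:**
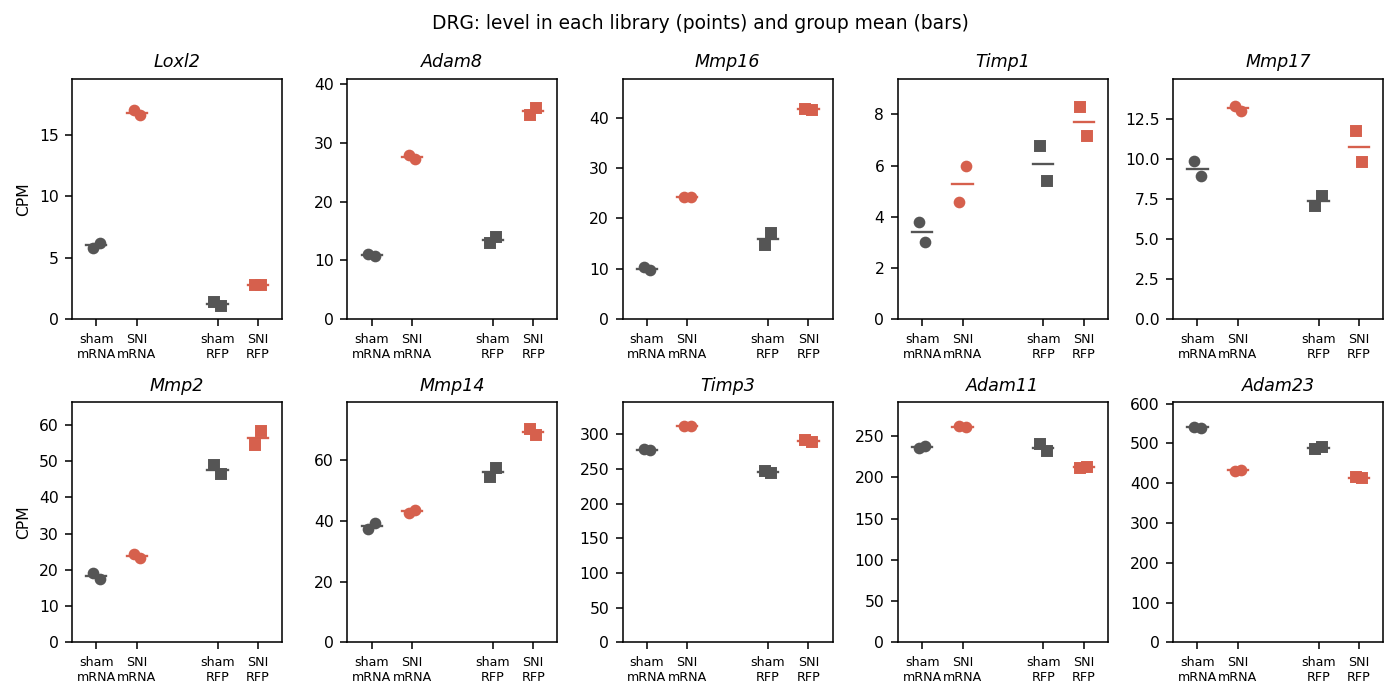
Level of 10 genes in the DRG libraries (y axis, CPM), with a point for each mRNA and footprint library and the mean of each group of 2. The SNI points of Loxl2, Adam8 and Mmp16 lie far above sham, and Adam11 is higher in mRNA and lower in footprints after SNI.

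Membrane-type MMPs, which are anchored at the cell surface, had higher mRNA in the SNI ganglion. In DRG mRNA 6 of 6 rose, against 15.9% of all genes, and in footprints 4 of 6, against 8.40%. Of the 6, Mmp16 alone passed the test against a 1.5-fold change. Mmp17 (MT4-MMP) was at 9.83 and 8.91 CPM in sham and 13.3 and 13.0 CPM in SNI mRNA, a rise of 0.48 (SE 0.0953, adjusted p = 0.000114), with 0.49 (SE 0.136, adjusted p = 0.00518) in footprints. Mmp14 (MT1-MMP), the activator of pro-Mmp2, was at 54.6 and 57.4 CPM in sham and 70.3 and 68.3 CPM in SNI footprints, with the groups apart. It rose by 0.29 (SE 0.0527, adjusted p = 4.22e-06) in footprints and by 0.17 (SE 0.0452, adjusted p = 0.00305) in mRNA. Mmp25, a member known from leukocytes, rose by 0.30 (SE 0.0517, adjusted p = 2.16e-05) in mRNA and 0.17 (SE 0.0401, adjusted p = 0.000787) in footprints. Mmp24 and Mmp15 rose by 0.14 (SE 0.0446, adjusted p = 0.0133) and 0.08 (SE 0.0267, adjusted p = 0.0181) in mRNA, while their footprint changes were -0.15 and -0.08 and did not pass (edgeR adjusted p = 0.282 and 0.0842). Some of these calls rested on single libraries. By edgeR adjusted p, Mmp24 mRNA did not pass without sham replicate 1 (0.0615), sham replicate 2 (0.0776) or SNI replicate 1 (0.0853), Mmp15 mRNA without sham replicate 1 (0.139) or SNI replicate 1 (0.0875), and Mmp14 mRNA without sham replicate 1 (0.0912). In footprints, Mmp17 did not pass without sham replicate 2 (0.0545) or SNI replicate 1 (0.0971), and Mmp25 without SNI replicate 2 (0.149). Exons of other genes overlap 13.6% of the exonic bases of Mmp24, and reads were counted without strand.

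Among secreted MMPs, the gelatinase Mmp2, made by fibroblasts in many tissues, was at 19.2 and 17.4 CPM in sham and 24.3 and 23.3 CPM in SNI DRG mRNA. It rose by 0.38 (SE 0.0674, adjusted p = 2.87e-05) in mRNA and by 0.26 (SE 0.0557, adjusted p = 0.000145) in footprints, with no overlap between groups. The other gelatinase, Mmp9, was at 3.76 and 3.84 CPM in sham and 3.57 and 3.46 CPM in SNI mRNA, a change of -0.11 (SE 0.160, edgeR adjusted p = 0.652). Mmp28 (epilysin) and Mmp19 rose by 0.53 (SE 0.121, adjusted p = 0.000767) and 0.42 (SE 0.152, adjusted p = 0.0302) in mRNA. Their footprints rose by 0.30 (SE 0.112, adjusted p = 0.0479) and 0.53 (SE 0.176, adjusted p = 0.0232). Exons of other genes overlap 12.0% of the exonic bases of Mmp28 and 28.3% of those of Mmp19. The collagenases Mmp8 and Mmp13 had mRNA changes of -0.30 and -0.23 that did not pass (edgeR adjusted p = 0.328 and 0.504). By edgeR adjusted p, Mmp2 footprints did not pass without sham replicate 2 (0.0697) or SNI replicate 2 (0.0550), Mmp28 footprints without any 1 of the 4 libraries (0.112 to 0.221), Mmp19 footprints without any 1 of the 4 libraries (0.0583 to 0.198) and Mmp19 mRNA without sham replicate 1 (0.0874), sham replicate 2 (0.128) or SNI replicate 2 (0.192).

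Of 16 ADAMTS genes tested in DRG mRNA, 3 rose (18.8%, near the 15.9% of all genes) and 0 fell. Adamts10, which binds fibrillin, was at 22.6 and 22.0 CPM in sham and 28.4 and 27.5 CPM in SNI, a rise of 0.33 (SE 0.0589, edgeR adjusted p = 3.28e-05). Adamts12 and Adamts20 rose by 0.56 (SE 0.190, adjusted p = 0.0214) and 0.42 (SE 0.141, adjusted p = 0.0181) from sham means of 2.10 and 4.45 CPM. By edgeR adjusted p, Adamts12 did not pass without sham replicate 1 (0.247) or SNI replicate 1 (0.0997), and Adamts20 without sham replicate 1 (0.186) or SNI replicate 2 (0.0657). In footprints, 2 of 12 rose (16.7%, against 8.40% of all genes) and 0 fell. Adamts14, a procollagen N-proteinase, went from 2.16 and 1.66 CPM to 3.37 and 3.53 CPM in footprints, a rise of 0.94 (SE 0.239, edgeR adjusted p = 0.00188) that did not pass without sham replicate 2 (0.304). Adamts1, which cuts versican and aggrecan, went from 47.0 and 47.4 CPM to 56.8 and 55.1 CPM in footprints (0.24, SE 0.0553, adjusted p = 0.000505), while its mRNA change was 0.04 (SE 0.0606, edgeR adjusted p = 0.640). The aggrecanase Adamts5 was at 79.2 and 78.3 CPM in sham and 78.2 and 83.3 CPM in SNI mRNA, a change of 0.03 (SE 0.0346, edgeR adjusted p = 0.561), with the groups overlapping.

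Of the 5 ADAMTSL proteins, which lack the protease domain, Adamtsl4 rose by 0.20 (SE 0.0807, edgeR adjusted p = 0.0492) in DRG mRNA and by 0.36 (SE 0.10, adjusted p = 0.00589) in footprints. Footprint levels were 13.0 and 15.3 CPM in sham and 19.9 and 18 CPM in SNI. Its mRNA did not pass without any 1 of the 4 libraries (0.106 to 0.193), nor its footprints without sham replicate 1 (0.0642) or SNI replicate 1 (0.0686), by edgeR adjusted p.

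Of the neuronal ADAMs, Adam23 (chr1:63445891-63596276, plus strand) was at 542 and 538 CPM in sham and 431 and 433 CPM in SNI DRG mRNA. Its footprints were at 485 and 492 CPM in sham and 415 and 413 CPM in SNI. The SNI libraries were lower in both assays, and the gene fell by 0.32 (SE 0.0168, adjusted p = 1.14e-17) in mRNA and by 0.24 (SE 0.0309, adjusted p = 2.42e-10) in footprints on the log2 scale. Adam22 was at 368 and 365 CPM in sham and 363 and 362 CPM in SNI mRNA, with changes of -0.02 (SE 0.0201, edgeR adjusted p = 0.613) in mRNA and -0.09 (SE 0.0379, edgeR adjusted p = 0.112) in footprints. The related ligands Lgi2 and Lgi3 fell by 0.26 (SE 0.0270, adjusted p = 8.69e-10) and 0.44 (SE 0.0275, adjusted p = 1.38e-15) in mRNA, and Lgi4, which Schwann cells use in myelination, rose by 0.28 (SE 0.0320, adjusted p = 6.84e-09). Of 8 sensory neuron marker genes, 2 rose and 6 fell in DRG mRNA, against 15.9% and 17.0% of all genes. Their sums were 5879 and 5899 CPM in sham and 5710 and 5686 CPM in SNI. Their part in the Adam23 change was not tested.

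Adam11 (chr11:102761439-102780262, plus strand) changed in opposite directions in mRNA and footprints. Its DRG mRNA was at 236 and 238 CPM in sham and 262 and 261 CPM in SNI. Its footprints were at 240 and 232 CPM in sham and 211 and 213 CPM in SNI. The groups were separate in each assay: mRNA rose by 0.14 (SE 0.0230, adjusted p = 6.64e-06) and footprints fell by 0.15 (SE 0.0366, adjusted p = 0.00107) on the log2 scale. The footprint call did not pass without SNI replicate 1 (0.0606) by edgeR adjusted p.

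Among sheddases, Adam15 was at 115 and 118 CPM in sham and 139 and 136 CPM in SNI DRG mRNA, and Adam19, which cuts neuregulin, at 95.1 and 95.7 CPM in sham and 110 and 109 CPM in SNI. They rose by 0.24 (SE 0.0284, adjusted p = 1.42e-08) and 0.20 (SE 0.0297, adjusted p = 1.28e-06), and their footprints changed by 0.09 and 0.08 and did not pass (edgeR adjusted p = 0.161 and 0.328). Exons of other genes overlap 20.6% of the exonic bases of Adam15 and 15.0% of those of Adam19. Adam33 rose by 0.39 (SE 0.138, edgeR adjusted p = 0.0271) in mRNA and did not pass without any 1 of the 4 libraries (0.0690 to 0.103). Adam9 went from 102 CPM in both libraries to 90.8 and 94.4 CPM and fell by 0.14 (SE 0.0309, edgeR adjusted p = 0.000348) on the log2 scale. Adam10, the main alpha-secretase of neurons, changed by -0.01 (SE 0.0320, edgeR adjusted p = 0.853) in mRNA and rose by 0.15 (SE 0.0394, adjusted p = 0.00227) in footprints, a call that did not pass without sham replicate 1 (0.0914) or SNI replicate 2 (0.184).

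Of the other lysyl oxidases, Loxl1 and Loxl3 passed the test in mRNA and Lox in footprints. Loxl3 was at 5.22 and 5.62 CPM in sham and 6.89 and 7.23 CPM in SNI mRNA (0.38, SE 0.129, edgeR adjusted p = 0.0206), and Loxl1 at 10.3 and 9.91 CPM in sham and 11.8 and 12.1 CPM in SNI (0.24, SE 0.0948, edgeR adjusted p = 0.0496). The groups were separate in mRNA, and the footprint changes were 0.08 for Loxl3 and 0.03 for Loxl1 (edgeR adjusted p = 0.745 and 0.909). Lox, the founding member, rose in footprints, from 36.6 and 36.8 CPM to 45.3 and 42.6 CPM (0.25, SE 0.0607, adjusted p = 0.00113), and changed by 0.13 (SE 0.0600, edgeR adjusted p = 0.0976) in mRNA. Loxl4, at 1.66 and 2.28 CPM in sham and 2.04 and 2.31 CPM in SNI mRNA, had overlapping groups (0.14, SE 0.208, edgeR adjusted p = 0.657), and a footprint change of -0.01 (edgeR adjusted p = 0.984). By edgeR adjusted p, Loxl1 mRNA did not pass without any 1 of the 4 libraries (0.103 to 0.200), Loxl3 mRNA without sham replicate 1 (0.157) or SNI replicate 2 (0.0757), and Lox footprints without sham replicate 2 (0.0686). Exons of other genes overlap 11.6% of the exonic bases of Loxl3 and 5.7% of those of Loxl2.

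The inhibitors did not all move the same way. Timp1 (chrX:20870166-20874735, plus strand), which is induced in many injured tissues, was at 3.81 and 3.01 CPM in sham and 4.57 and 5.99 CPM in SNI DRG mRNA, a rise of 0.60 (SE 0.166, adjusted p = 0.00485). Its footprints, at 6.75 and 5.38 CPM in sham and 8.27 and 7.16 CPM in SNI, were separate as well but did not pass (0.38, SE 0.156, edgeR adjusted p = 0.0798). The mRNA call did not pass without sham replicate 2 (0.0946) or SNI replicate 2 (0.0830) by edgeR, and by DESeq2 its adjusted p was 0.0980.

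Timp3, which stays bound to the matrix and also blocks Adam17, was at 278 and 277 CPM in sham and 311 CPM in both SNI libraries of DRG mRNA. Its footprints were at 247 and 244 CPM in sham and 292 and 288 CPM in SNI. It rose by 0.16 (SE 0.0218, adjusted p = 2.06e-07) in mRNA and by 0.24 (SE 0.0378, adjusted p = 1.17e-07) in footprints, with separate groups. Exons of Syn3 overlap 21.3% of its exonic bases. Timp2 was at 1243 and 1227 CPM in sham and 1204 and 1197 CPM in SNI mRNA, and it fell by 0.04 on the log2 scale (SE 0.00698, adjusted p = 1.39e-05). That standard error is below the 0.00884 that counting error alone gives, and the call was lost with library sizes alone (-0.01, edgeR adjusted p = 0.508) and in DESeq2 (adjusted p = 0.0678). Timp2 footprints changed by -0.06 (SE 0.0248, edgeR adjusted p = 0.111). Timp4, with 120 reads in the 4 DRG mRNA libraries, was under the minimum and stood at 2.06 and 1.61 CPM in sham and 1.11 and 0.799 CPM in SNI.

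Summed over a family, levels of MMPs and lysyl oxidases were higher in SNI. The sum of all ADAMs was lower in DRG mRNA, and that of the ADAMs other than Adam23 was higher. The 22 MMPs together stood at 310 and 308 CPM in sham and 360 and 361 CPM in SNI DRG mRNA, a ratio of means of 1.17, and at 474 and 476 CPM in sham and 528 and 535 CPM in SNI footprints, a ratio of 1.12. The 5 lysyl oxidases stood at 45.8 and 46.8 CPM in sham and 62.8 and 63.2 CPM in SNI mRNA (1.36, or 1.15 without Loxl2) and the 19 ADAMTS genes at 231 and 236 CPM in sham and 249 and 258 CPM in SNI (1.08). The 27 ADAMs, in which Adam23 and Adam22 weigh most, stood at 1615 and 1614 CPM in sham and 1576 and 1569 CPM in SNI (0.974). The fall of Adam23 was larger than that of this sum. Adam23 took 14.3% of the mRNA reads of all 82 genes in both sham libraries and 11.3% in both SNI libraries. The 4 TIMPs, mostly Timp2, overlapped at 1527 and 1509 CPM in sham and 1521 and 1514 CPM in SNI. Over all 82 genes the sums were 3784 and 3767 CPM in sham and 3825 and 3822 CPM in SNI. These sums are levels with no test.

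Many markers of connective tissue, vessel and muscle cells also rose in the SNI ganglion, while those of glia were mixed or mostly lower. The summed level of spinal cord neuron genes was lower too. In DRG mRNA, 15.9% of all genes rose and 17.0% fell, and the counts of this paragraph stand against these shares. A count of 1 of 6 lies near them. Of 11 fibroblast and perineurium genes 9 rose and 0 fell (sums of 1770 and 1759 CPM in sham and 1977 and 1961 CPM in SNI). Of 7 mural genes 6 rose (346 and 343 CPM in sham and 375 and 380 CPM in SNI), and of 7 endothelial genes 3 rose (154 and 155 CPM in sham and 168 and 173 CPM in SNI). Of 10 skeletal muscle genes 8 rose and 1 fell, with a median log2 change of 1.40, and without Pvalb, which proprioceptive neurons also express, the other 9 summed to 50.9 and 53.8 CPM in sham and 139 CPM in both SNI libraries. Of 6 astrocyte genes 1 rose and 4 fell (173 and 169 CPM in sham and at most 135 CPM in SNI). Of 6 Schwann cell myelin genes 1 rose and 2 fell (3230 and 3226 CPM in sham and 3109 and 3115 CPM in SNI), and of 6 satellite glia genes 2 rose and 3 fell (4418 and 4461 CPM in sham and 4493 and 4505 CPM in SNI). Of 7 neutrophil genes tested 0 rose and 2 fell (all 8 summed to 110 and 109 CPM in sham and 99.8 and 104 CPM in SNI), and of 5 oligodendrocyte genes tested 1 rose and 3 fell (all 8 summed to 134 and 129 CPM in sham and 111 and 108 CPM in SNI). The 7 spinal cord neuron genes summed to 26.3 and 23.5 CPM in sham and 15.7 and 14.8 CPM in SNI DRG mRNA. In sham SC mRNA they summed to 1309 and 1286 CPM. No gene of these lists was without reads in DRG mRNA. The part of these cells in the changes of the proteases was not tested.

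Other genes of the same pathway were taken from lists of activators, partners and substrates, and the counts in DRG mRNA stand against 15.9% of all genes that rose and 17.0% that fell. Of 23 regulators and activators of proteolysis tested, 11 rose and 2 fell (47.8% and 8.7%). Bmp1, the procollagen C-proteinase that also activates Lox, went from 23.9 and 22.6 CPM to 37.4 and 35.8 CPM (0.66, SE 0.0546, edgeR adjusted p = 4.04e-12). Its helper Pcolce rose by 0.30 (SE 0.0406, adjusted p = 2.77e-07), and the plasminogen activators Plau and Plat by 0.34 (SE 0.0744, adjusted p = 0.000366) and 0.37 (SE 0.0824, adjusted p = 0.000487). Tll1, a relative of Bmp1, fell by 0.51 (SE 0.150, adjusted p = 0.00731). The membrane-anchored MMP inhibitor Reck rose by 0.21 (SE 0.0782, adjusted p = 0.0392).

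Of 16 genes for elastic fibres and matrix glycoproteins, 11 rose and 1 fell in DRG mRNA (68.8% and 6.25%, against the same 15.9% and 17.0%), with Eln (elastin) at 0.39 (SE 0.0570, edgeR adjusted p = 1.1e-06), Fbn1 (fibrillin) at 0.34 (SE 0.0550, edgeR adjusted p = 6.27e-06) and Comp at -0.44 (SE 0.0574, edgeR adjusted p = 1.45e-07). Of 9 proteoglycan substrates and their partners, 2 rose and 3 fell (22.2% and 33.3%). Tnc (tenascin-C) rose by 0.61 (SE 0.138, adjusted p = 0.000596), whereas Acan, Hapln1 and Hapln4, parts of the nets around neurons, fell by 0.59, 0.54 and 0.48 (edgeR adjusted p = 0.0381, 3.41e-09 and 1.1e-11). Of 12 partners of ADAMs, 6 rose and 3 fell (50% and 25%), with Rhbdf1 and Rhbdf2, the carriers of Adam17, at 0.41 (SE 0.0690, edgeR adjusted p = 1.21e-05) and 0.32 (SE 0.0995, edgeR adjusted p = 0.0114). Of 15 shed ligands and receptors, 5 rose and 1 fell (33.3% and 6.67%), with the growth factor Btc at 0.79 (SE 0.227, edgeR adjusted p = 0.00636), the TNF receptor Tnfrsf1b at 0.48 (SE 0.105, edgeR adjusted p = 0.000402) and the neuregulin Nrg1 at -0.16 (SE 0.0267, edgeR adjusted p = 6.39e-06).

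TE changed in few of these genes. Of 47 tested in the DRG, 2 rose and 3 fell, against 4.22% and 3.21% of 12710 genes (7.43% in either direction). Adam11 had a log2 TE of 0.02 and -0.04 in the sham lysates and -0.31 and -0.29 in the SNI lysates. It fell by 0.29 (SE 0.0442, edgeR adjusted p = 1.41e-08), and this call passed without each lysate in turn. Mmp24 and Mmp15 fell by 0.30 (SE 0.0988, adjusted p = 0.0341) and 0.16 (SE 0.0467, adjusted p = 0.0176), and Adam9 and Adam10 rose by 0.20 (SE 0.0524, adjusted p = 0.00460) and 0.17 (SE 0.0506, adjusted p = 0.0185). In DESeq2, Adam11 was the 1 gene of the 47 to pass, and in limma on the deposited TE 0 passed, with 4 upward and 5 downward at an unadjusted p under 0.05 and an adjusted p of 0.355 for Adam11. Leaving out lysates ended the other 4 calls: by edgeR adjusted p, Adam9 did not pass without sham replicate 1 (0.154), SNI replicate 1 (0.109) or SNI replicate 2 (0.0506), Adam10 without sham replicate 1 (0.311) or SNI replicate 2 (0.619), Mmp15 without sham replicate 1 (0.216), SNI replicate 1 (0.112) or SNI replicate 2 (0.0956), and Mmp24 without any 1 of the 4 lysates (0.0531 to 0.290).

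**Figure D3:**
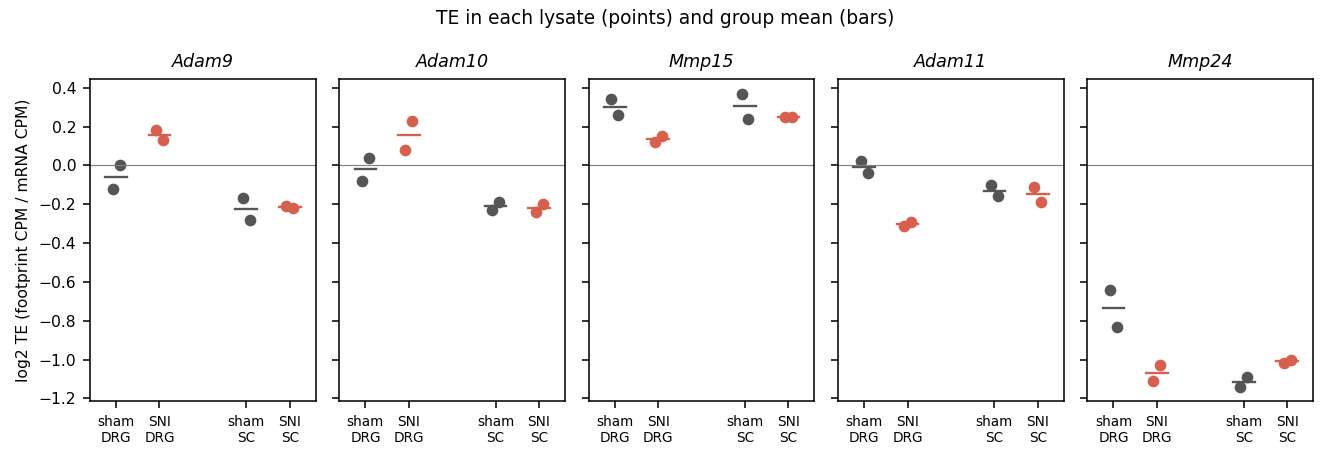
Log2 TE (y axis) of the 5 genes with a TE call in the DRG, with a point for each lysate of sham and SNI and the mean of 2 lysates. In the DRG, Adam11 sat between -0.04 and 0.02 in sham and between -0.31 and -0.29 in SNI.

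Among the inhibitors and oxidases, the DRG changes in log2 TE were -0.31 for Timp1, -0.01 for Timp2, 0.08 for Timp3, 0.12 for Lox, -0.23 for Loxl1, -0.33 for Loxl3 and -0.12 for Loxl4 (edgeR adjusted p = 0.516, 0.764, 0.301, 0.508, 0.394, 0.333 and 0.875). The levels of TE differed far more between genes than between groups. In sham DRG, log2 TE ran from -2.69 ± 0.18 (SD, n = 2) for Adamts10 to 2.57 ± 0.14 for Adamts3, and the median of the 47 genes was 0.30, against -0.18 for 12393 protein-coding genes. In sham SC the 36 genes had a median of 0.23, against -0.17 for 11619, and ran from -1.25 ± 0.33 for Adamts20 to 3.08 ± 0.17 for Adamts15. Mmp9 was high in both tissues, at 2.25 ± 0.02 in DRG and 1.87 ± 0.05 in SC, as was Adamts3, at 2.01 ± 0.09 in SC. Adamts15 was near the middle in DRG, at -0.18 ± 0.12, and Timp2 was low in DRG, at -0.88 ± 0.01. Footprints fall in coding sequence while mRNA reads cover whole transcripts. The coding share of exons, 17.0% in Timp2 and 71.3% in Adamts3, correlated with log2 TE over the 47 DRG genes with a Pearson r of 0.34 and a Spearman rho of 0.39, and over all genes with 0.36 and 0.38. These are descriptions across genes, which share the same lysates.

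In the spinal cord few changes were detected. Of 50 genes tested in SC mRNA, 0 rose and 3 fell in edgeR, against 2.09% and 1.96% of 14723 genes (4.05% in either direction), with 4 upward and 6 downward at an unadjusted p under 0.05. DESeq2 called 0 in either direction. Timp3 was at 186 and 181 CPM in sham and 168 and 169 CPM in SNI, Adam23 at 497 and 486 CPM in sham and 461 and 462 CPM in SNI, and Adam22 at 384 and 375 CPM in sham and 360 and 356 CPM in SNI. The SNI libraries were the lower ones in each, and the genes fell by 0.13 (SE 0.0298, adjusted p = 0.00548), 0.09 (SE 0.0246, adjusted p = 0.0194) and 0.08 (SE 0.0256, edgeR adjusted p = 0.0484) on the log2 scale. By edgeR adjusted p, Timp3 did not pass without sham replicate 1 (0.0950), SNI replicate 1 (0.0932) or SNI replicate 2 (0.0918), Adam23 without sham replicate 1 (0.164), SNI replicate 1 (0.194) or SNI replicate 2 (0.236), and Adam22 without sham replicate 1 (0.282), SNI replicate 1 (0.200) or SNI replicate 2 (0.425). Without sham replicate 2, 2 genes rose and 6 fell.

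In SC footprints, 0 of 37 genes rose and 1 fell in edgeR, against 1.21% and 1.03% of 12018 (2.24% in either direction), with 1 upward and 8 downward at an unadjusted p under 0.05 and 0 called by DESeq2. Adam22 was at 228 and 220 CPM in sham and 202 and 203 CPM in SNI, and it fell by 0.14 on the log2 scale (SE 0.0370, edgeR adjusted p = 0.0398), and did not pass without any 1 of the 4 libraries (0.0827 to 0.306). Adam8, with 62 SC footprint reads, was under the minimum. It stood at 0.972 and 0.561 CPM in sham and 2.88 and 3.91 CPM in SNI, and in a fit with no minimum its change was 2.19 (SE 0.373, edgeR adjusted p = 6.75e-06). Adam8 mRNA in SC went from 3.20 and 2.77 CPM to 4.54 and 3.96 CPM (0.50, SE 0.163, edgeR adjusted p = 0.0633). Of 10 macrophage and microglia genes, 5 rose and 0 fell in SC mRNA, against 2.09% and 1.96% of all genes. Their sums were 252 and 256 CPM in sham and 322 and 331 CPM in SNI, and their part in the Adam8 values was not tested. Of the 36 genes tested for TE in SC, 0 changed in edgeR, against 0.169% and 0.0843% of 11865 genes, with 0 upward and 2 downward at an unadjusted p under 0.05, and 0 were called by DESeq2 or limma.

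Of the inhibitors and oxidases in SC, Timp2 was at 787 and 778 CPM in sham and 768 and 759 CPM in SNI mRNA (-0.03, SE 0.0230, edgeR adjusted p = 0.470) and Timp4, known from heart and brain, at 103 and 110 CPM in sham and 109 and 112 CPM in SNI (0.05, SE 0.0354, edgeR adjusted p = 0.549). Lox, Loxl1, Loxl2 and Loxl3 changed by 0.03, -0.09, 0.22 and 0.15 in mRNA (edgeR adjusted p = 0.945, 0.752, 0.636 and 0.659). Timp1 and Loxl4 were under the minimum in SC mRNA, with 122 and 29 reads. In SC footprints, Timp2, Timp3 and Timp4 changed by -0.02, -0.09 and 0.07 (edgeR adjusted p = 0.765, 0.364 and 0.683).

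The mRNA response differed between DRG and SC for some genes when the difference itself was tested over the 8 mRNA libraries. Of 60 genes tested, 10 were more positive in DRG and 2 in SC (edgeR), against 6.35% and 7.23% of 16716 genes. Loxl2 and Mmp16 had the largest differences, 1.27 (SE 0.223, adjusted p = 2.98e-05) and 1.25 (SE 0.107, adjusted p = 6.54e-13) on the log2 scale. In SC, on the scale of this fit, Mmp16 was at 16.6 and 16.4 CPM in sham and 17.2 and 16.3 CPM in SNI, and Loxl2 at 2.03 and 1.97 CPM in sham and 2.12 and 2.56 CPM in SNI. Adam8 differed by 0.84 (SE 0.175, adjusted p = 0.000373), Mmp28 by 0.67 (SE 0.197, adjusted p = 0.0144), Mmp2 by 0.49 (SE 0.131, adjusted p = 0.00599), Mmp17 by 0.42 (SE 0.104, adjusted p = 0.00280) and Adam19 by 0.39 (SE 0.0629, adjusted p = 7.05e-06). Adam23 was the more negative in DRG, with -0.22 (SE 0.0297, adjusted p = 1.44e-07). By edgeR adjusted p, Mmp28 did not pass without DRG sham replicate 2 (0.0826), SC sham replicate 1 (0.104), DRG SNI replicate 2 (0.0641) or SC SNI replicate 1 (0.0954), and Mmp17 without DRG sham replicate 2 (0.0531). Of these calls Adam15, Adamtsl4, Mmp2, Mmp17 and Mmp28 did not pass (adjusted p from 0.0554 to 0.283) in DESeq2. Scaled by library size alone, 12 and 2 genes were called, and the share of all calls that were more positive in DRG went from 46.8% to 58.1%.

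Timp4 was more negative in DRG, with -0.96 (SE 0.267, adjusted p = 0.00924) by edgeR. It was under the minimum in DRG mRNA, with 41 and 29 reads in sham and 32 and 18 in SNI. Its SC reads, 2805 and 2472 in sham, carried it past the minimum of the fit over both tissues. On the scale of this fit it was in DRG at 2.10 and 1.64 CPM in sham and 1.13 and 0.814 CPM in SNI, and in SC at 102 and 108 CPM in sham and 106 and 110 CPM in SNI. The summed level of 6 astrocyte genes in DRG mRNA was 173 and 169 CPM in sham and at most 135 CPM in SNI. That of 7 spinal cord neuron genes was 26.3 and 23.5 CPM in sham and 15.7 and 14.8 CPM in SNI. Their part in the Timp4 value was not tested. The Timp4 call did not pass without DRG sham replicate 1 (0.173) or DRG SNI replicate 2 (0.0892) by edgeR adjusted p.

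**Figure D4:**
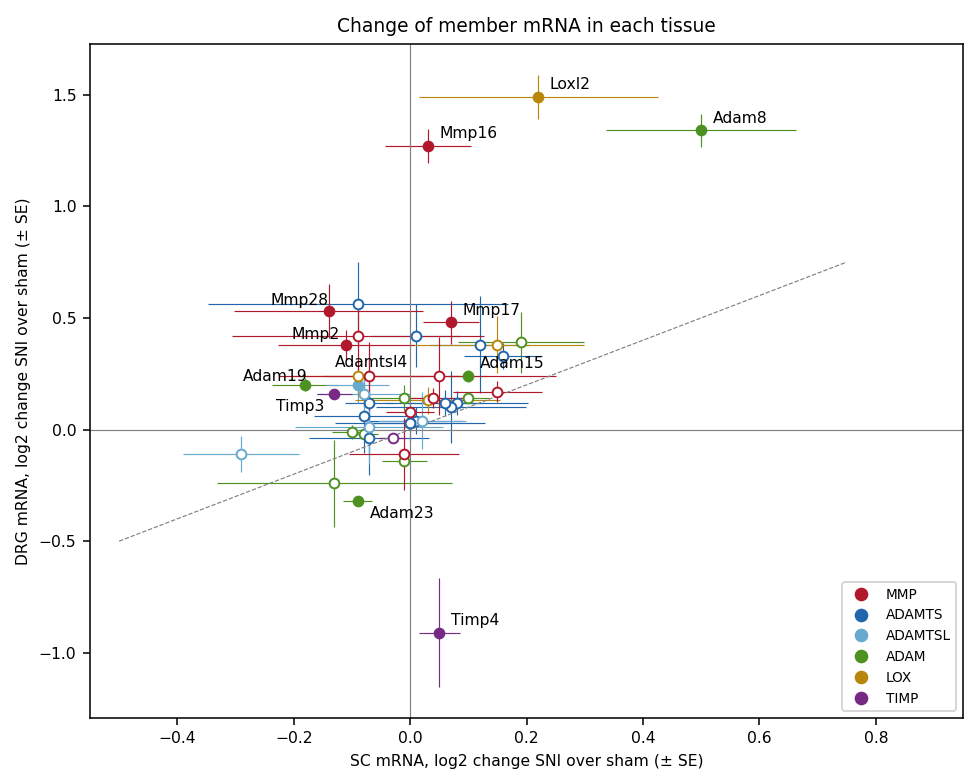
Log2 change of SNI over sham in mRNA in SC and DRG, with standard errors, for the 47 genes that were tested in both tissues or passed the test of the difference between them. Loxl2, Adam8 and Mmp16 lie high above the line of equal change, and Timp4 (its DRG value from the fit with no minimum) and Adam23 below it.

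In sham mRNA, 33 of 60 genes were higher in DRG and 17 in SC, against 39.9% and 41.2% of 16716 genes. Counted in either direction, the share was near the 81.1% of all genes. The largest DRG excess was Mmp25, at 28.3 CPM in sham DRG and 0.237 in sham SC (log2 difference 6.86, SE 0.161, edgeR adjusted p = 5.07e-38). It was followed in log2 difference by Loxl4 at 3.44, Adamts7 at 2.94, Adamts14 at 2.72, Adamts15 at 2.46, Mmp8 at 2.32, Adamts8 at 2.30, Lox at 1.92, Adam8 at 1.91 and Adamts5 at 1.90 (edgeR adjusted p from 7.83e-36 to 7.01e-09). Some of these sizes rest on few sham SC mRNA reads: 7 and 5 for Mmp25, 7 and 2 for Loxl4, 17 and 10 for Adamts7, 11 and 12 for Adamts14, 13 and 8 for Mmp8, and 31 and 28 for Adamts8. These genes were under the minimum in SC mRNA alone and entered the fit over both tissues through their DRG reads.

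In SC, the inhibitor Timp4 stood highest above DRG, at 105 CPM in sham SC and 1.87 in sham DRG (log2 difference -5.80, SE 0.0866, edgeR adjusted p = 9.31e-47). Next was the aggrecanase Adamts4, at 63.5 and 1.89 CPM (-5.08, SE 0.0995, edgeR adjusted p = 1.57e-41). Adamts16 at -2.60, Mmp17 at -2.26, Adamts6 at -1.93, Adamts20 at -1.85, Adamts19 at -1.75, Mmp9 at -1.42, Adamtsl4 at -1.41 and Adamtsl1 at -1.39 followed (edgeR adjusted p from 1.64e-32 to 8.71e-09). Sham DRG mRNA reads were few for Timp4 (41 and 29), Adamts4 (34 and 36), Adamts16 (28 and 43) and Adamts19 (19 and 14). Timp4 and Adamts19 were under the minimum in DRG mRNA alone and entered the fit through their SC reads. Timp1, Timp2 and Timp3 were higher in sham DRG, by 1.75, 0.71 and 0.65 (edgeR adjusted p = 3.11e-09, 1.83e-35 and 1.45e-28), as were Loxl1, Loxl2 and Loxl3, by 0.44, 1.60 and 0.38 (edgeR adjusted p = 0.000234, 8.79e-13 and 0.0146). The Loxl3 difference did not pass without DRG sham replicate 2 (0.0856) or SC sham replicate 1 (0.124) by edgeR. Of the sham calls Adam4, Adamts12 and Loxl3 did not pass (adjusted p from 0.0771 to 0.129) in DESeq2.

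**Figure D5:**
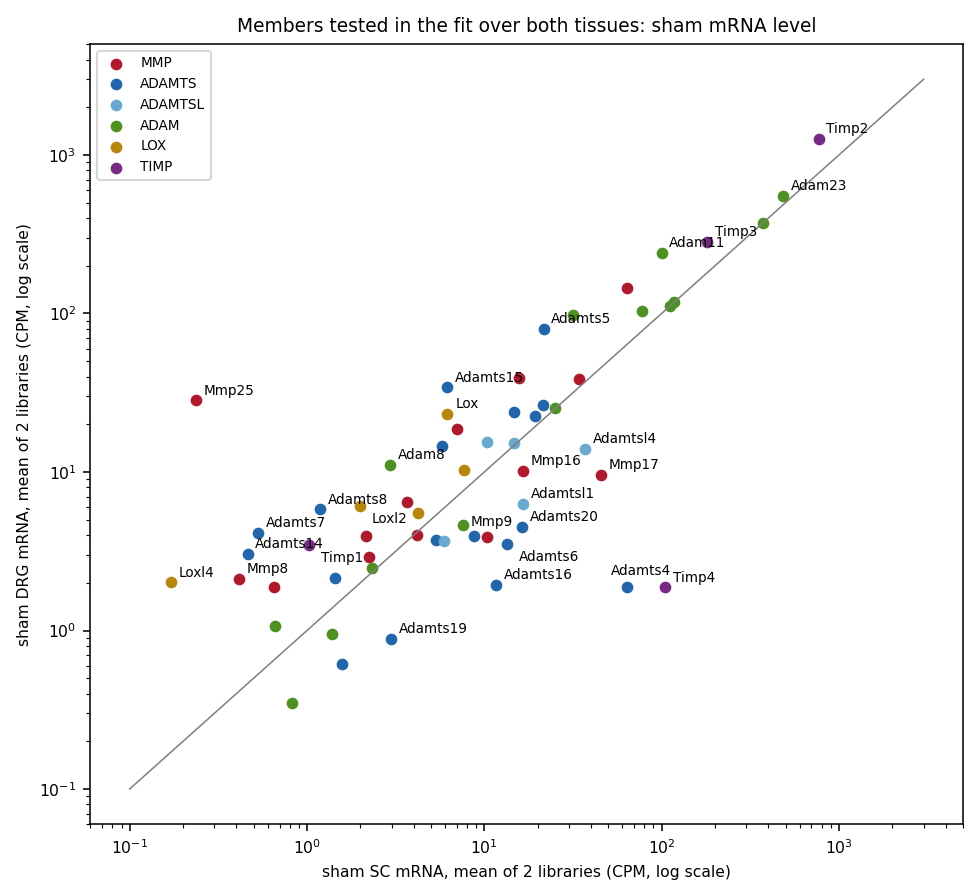
Sham mRNA level (mean of 2 libraries, CPM, both axes logarithmic) in SC and DRG of the genes tested over both tissues, coloured by family. Mmp25 lies far above the line of equal level, and Timp4 and Adamts4 far below it.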

How the data were processed

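Each of the 16 libraries came from pooled tissue of 10 mice. The authors trimmed the reads, discarded those matching rRNA or tRNA (Bowtie 1.1.2), mapped the rest to GRCm38.p5 (STAR 2.5.2b) and made gene counts in HTSeq (version not given in the sources used here). They deposited raw read counts, RPKM values and TE as a ratio of footprint RPKM over mRNA RPKM. The deposited counts were used for all main results, the deposited TE ratio in 1 alternative with limma, and the deposited RPKM values for no test.

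Counts were fitted with edgeR 4.0.16 in R 4.3.3 (quasi-likelihood test, TMM scaling within an assay), keeping every gene whose 4 libraries of an assay averaged at least 32 reads, or 16 where 8 libraries of both tissues were fitted. P-values were adjusted by Benjamini-Hochberg over the kept genes, with a threshold of 0.05. For TE, footprint and mRNA libraries entered a joint fit with a term for each lysate, which the labels pair, and the surgery effect was allowed to differ between assays. Tissue differences came from 1 fit over 8 mRNA libraries. Levels per length used the exonic length in the deposited table and library sizes without TMM scaling. Alternatives used limma 3.58.1 and DESeq2 1.42.0, other filters and scalings, and leaving out each replicate.

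The 82 genes, the gene lists and the tests were chosen with earlier results of these data known. Named with values were the genes with a call between SNI and sham, the TIMPs and lysyl oxidases, the 10 highest levels in each tissue, and up to 10 of the largest differences between tissues in each direction. Other genes, such as Mmp9, Mmp8, Mmp13 and Adamts5, and the genes named from the pathway lists, were chosen after their values were seen. The values of 1 pathway gene are not reported here; it stayed in the counts. For 1 further gene with a matching name the table gave another type than protein coding, and it was not used here. Counts were made without strand, so reads in exons of overlapping genes cannot be assigned to 1 gene by strand. Precision was limited by 2 pools a group and by footprint depth.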

Additional observations from a re-analysis of the deposited data

Results flagged for a closer look

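For 12 genes the mRNA response to SNI differed between DRG and SC by the edgeR test of the difference itself, given as the log2 change in DRG minus that in SC. It was 1.27 for Loxl2 (adjusted p = 2.98e-05), 1.25 for Mmp16 (adjusted p = 6.54e-13), 0.84 for Adam8 (adjusted p = 0.000373), 0.67 for Mmp28 (adjusted p = 0.0144), 0.49 for Mmp2 (adjusted p = 0.00599), by edgeR with adjustment over all genes. It was 0.42 for Mmp17 (adjusted p = 0.00280), 0.39 for Adam19 (adjusted p = 7.05e-06), 0.30 for Timp3 (adjusted p = 8.57e-09), 0.30 for Adamtsl4 (adjusted p = 0.0285) and 0.15 for Adam15 (adjusted p = 0.0101), by the same edgeR test. It was negative for 2 genes, -0.22 for Adam23 (adjusted p = 1.44e-07) and -0.96 for Timp4 (adjusted p = 0.00924), again by edgeR. Timp4, with 41 and 29 sham and 32 and 18 SNI reads in DRG mRNA, was under the minimum there. It entered this fit through its SC reads. The response of Timp3 had opposite signs in the 2 tissues, with a rise in DRG and a small fall in SC (-0.13). The SC fall ran from -0.15 to -0.10 under the alternatives, kept its call in 5 of 11 of them, and did not pass in DESeq2 (adjusted p = 0.352). By edgeR, the Adamtsl4 difference did not pass without any 1 of 6 of the 8 libraries (adjusted p from 0.0622 to 0.118: all 4 of DRG, SC sham replicate 2 and SC SNI replicate 1), nor that of Adam15 without DRG sham replicate 1 (0.0800), DRG SNI replicate 1 (0.0714) or SC sham replicate 2 (0.0537). The causes of these differences were not tested.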

How the results depend on the processing

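Counts of called genes differed with the tool, the read minimum, the change tested against, the spread assumed between pools and the scaling. With DESeq2, 12 genes rose in DRG mRNA and 4 in DRG footprints, TE rose for 0 and fell for 1, 0 fell in SC mRNA and 0 in SC footprints, and 5 responses were more positive in DRG. Over all genes, DESeq2 called 928 up and 1176 down in DRG mRNA and 349 and 376 in DRG footprints. It called 56 and 30 in DRG TE, 39 and 18 in SC mRNA and 67 and 24 in SC footprints. Responses more positive in DRG and in SC numbered 358 and 552. With the minimum on the sum asked of every library instead, fewer genes were tested. Then 15 of 29 rose in DRG mRNA and 8 of 24 in DRG footprints, against 23 of 54 and 14 of 47 in the main fits. Of 26 genes tested over both tissues, 1 response was more positive in SC, and 18 and 3 genes were higher in sham DRG and sham SC. In the main fit these were 2, 33 and 17 of 60. Shares over all genes with this filter are not given here. With the coefficient of variation fixed at 0.1, 3 rose and 0 fell in DRG mRNA, 2 rose and 0 fell in DRG footprints, 0 changed in DRG TE, 0 fell in SC mRNA or footprints, and 2 and 0 responses were more positive in DRG and SC. Against a 1.5-fold change the numbers were 3 and 0, 2 and 0, 0 in TE, 0 in SC, and 1 and 0. TE rose for 1 gene with no minimum, 1 without lysate terms and 0 in limma on the deposited TE, where 0 fell, and 1 gene rose in SC footprints with no minimum. The causes were not tested.

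Leaving out 1 replicate each gave 14 to 20 rises and 3 falls in DRG mRNA, 8 to 11 and 1 to 3 in DRG footprints, 0 to 2 and 1 to 2 in DRG TE, 0 to 2 and 0 to 6 in SC mRNA, 0 to 1 and 0 to 1 in SC footprints, 7 to 10 responses more positive in DRG and 1 to 3 in SC, and 31 to 33 and 15 to 16 genes higher in sham DRG and SC. A lone pool left in a group was then assumed to vary like the other group.

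Replicate numbers are shared between sham and SNI, but nothing in the labels says that they pair pools, and deviations of same-numbered libraries correlated at 0.0431 in DRG mRNA, 0.212 in DRG footprints, 0.00284 in SC mRNA, -0.0308 in SC footprints, 0.0383 in DRG TE and -0.0151 in SC TE. With the replicate number as a block, 25 rose and 3 fell in DRG mRNA, 14 and 3 in DRG footprints, 2 and 4 in DRG TE, 3 and 6 in SC mRNA, 0 and 1 in SC footprints and 0 in SC TE, with 10 and 2 tissue differences and 33 and 17 in sham. Counts over all genes with this block are not given here.

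Directions turned for small changes that had passed no test. With 1 replicate left out, log2 changes in DRG ran from -0.08 to 0.38 for Loxl4 in mRNA, from -0.13 to 0.18 for Loxl3, -0.11 to 0.09 for Loxl1 and -0.16 to 0.17 for Loxl4 in footprints, and from -0.51 to 0.16 for Loxl4 and -0.58 to 0.02 for Timp1 in TE. In SC they ran from -0.07 to 0.34 for Loxl3, -0.0044 to 0.09 for Timp4, -0.22 to 0.03 for Loxl1 and -0.11 to 0.15 for Lox in mRNA, and from -0.01 to 0.07 for Timp4, -0.27 to 0.18 for Loxl1, -0.03 to 0.12 for Timp3 and -0.0011 to 0.03 for Timp2 in TE. With library sizes alone, Loxl4 was at 0.01 in DRG footprints. Of the other values of single genes under all alternatives, 1304 kept direction and side of the threshold, 283 kept the direction and no longer passed, and 1 newly passed. These include TIMPs and lysyl oxidases that passed in no setting and the sham calls between tissues. The 1304 are thus no measure of how stable the calls between SNI and sham were. With DESeq2, upward calls among all genes made up 68.4% in SC mRNA, 73.6% in SC footprints and 84.6% in SC TE, against 51.6%, 53.9% and 66.7%.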
